A study of Mus musculus with 6 samples.

Results

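The genes described here are 6 mouse genes of lipid handling, measured by RNA sequencing in a pair of lung squamous cell carcinoma (LUSC) cell lines. They are *Abca1*, *Slc44a1*, *Cyp7a1* and the paraoxonases *Pon1*, *Pon2* and *Pon3*. They were taken by Ensembl identifier from a count table of 55359 rows, each row a gene with its exons. A row was kept only if it lay in the first part of chromosome 4 or of chromosome 6, where the positions of the table and of the mouse assembly GRCm38 agree. These 2 windows hold 1144 rows, and all 6 genes lay inside them. UN-SCC679 and UN-SCC680 were derived from lung tumors of different A/J mice painted on the skin with N-nitroso-tris-chloroethylurea (NTCU), a carcinogen that produces squamous tumors. Both lines were passaged in culture, in immunodeficient mice and in A/J mice before use, and polyA RNA of cultured cells was sequenced in 3 libraries per line. Both are of the A/J strain and no other treatment is given in the labels. Each line comes from a single tumor and was passaged afterwards, so differences of tumor and of passage cannot be told apart, and the labels do not say whether the libraries of a line are separate cultures.

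ABCA1 is a membrane transporter that hands cholesterol and phospholipid from the cell to apolipoprotein A-I, the step that starts a high-density lipoprotein (HDL) particle. Its gene is switched on by the oxysterol-sensing liver X receptors when cells hold much cholesterol. SLC44A1 carries choline, the head group of phosphatidylcholine, across the plasma and mitochondrial membranes. Paraoxonases are calcium-dependent enzymes that open lactone rings and protect lipids from oxidation. In humans, PON1 and PON3 are made mainly in liver and travel on HDL, whereas PON2 is made in many tissues and stays inside cells. CYP7A1 turns cholesterol into 7α-hydroxycholesterol, the rate-limiting step of bile acid synthesis in hepatocytes.

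Promoter stretches of *Abca1*, *Slc44a1*, *Pon3* and *Pon2* are shown because these 4 genes gave the measurable values, and *Pon1* is shown as the neighbor of *Pon3* and *Pon2* that had almost no reads. Each is the 250 bases before a transcript start given in the RefSeq promoters of GRCm38.p6, written 5′ to 3′ on the strand of the gene. In each gene this transcript start lay 5 to 93 bases inside the outer end of the RefSeq gene. They lie at chr4:53159896-53160145 (minus strand), chr4:53440163-53440412 (plus strand), chr6:5256234-5256483 (minus strand), chr6:5298341-5298590 (minus strand) and chr6:5193947-5194196 (minus strand). *Cyp7a1* is named only. Capitals mark exact matches, on either strand, to the TATA box letters TATAAA, the GC box GGGCGG bound by Sp1 and the E-box CACGTG.
Abca1: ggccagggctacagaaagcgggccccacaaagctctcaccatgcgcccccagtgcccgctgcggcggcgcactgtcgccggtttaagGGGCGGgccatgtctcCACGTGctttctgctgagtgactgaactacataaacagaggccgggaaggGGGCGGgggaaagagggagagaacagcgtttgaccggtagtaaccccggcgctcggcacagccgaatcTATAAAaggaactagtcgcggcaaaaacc
Slc44a1: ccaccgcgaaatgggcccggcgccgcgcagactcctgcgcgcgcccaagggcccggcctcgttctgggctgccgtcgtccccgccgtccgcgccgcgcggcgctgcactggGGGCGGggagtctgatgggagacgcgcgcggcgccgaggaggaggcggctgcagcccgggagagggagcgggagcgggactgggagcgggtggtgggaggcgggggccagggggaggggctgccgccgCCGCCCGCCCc
Pon3: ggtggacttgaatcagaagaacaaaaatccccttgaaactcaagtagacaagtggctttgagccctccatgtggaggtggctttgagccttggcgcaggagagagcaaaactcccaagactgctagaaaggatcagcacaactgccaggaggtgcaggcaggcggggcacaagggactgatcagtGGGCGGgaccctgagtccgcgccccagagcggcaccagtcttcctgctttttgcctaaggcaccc
Pon2: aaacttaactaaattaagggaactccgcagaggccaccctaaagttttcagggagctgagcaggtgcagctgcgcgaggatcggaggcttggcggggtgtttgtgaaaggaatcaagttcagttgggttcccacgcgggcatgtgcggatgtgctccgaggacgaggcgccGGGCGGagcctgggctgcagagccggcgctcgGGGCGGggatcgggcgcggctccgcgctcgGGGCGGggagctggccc
Pon1: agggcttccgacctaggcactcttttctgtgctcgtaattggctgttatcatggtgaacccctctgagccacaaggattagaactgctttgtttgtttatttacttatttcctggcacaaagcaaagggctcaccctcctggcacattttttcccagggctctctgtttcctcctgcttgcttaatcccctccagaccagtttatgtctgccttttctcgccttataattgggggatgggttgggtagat
*Abca1* was the only gene of these 5 with a TATA box, starting 29 bases before that transcript start, and the only one with an E-box, at 147 bases. It also had GC boxes at 163 and 97 bases. TATAAA was present in 13.0% of 27025 promoter windows of the same length, the E-box in 6.05% and the GC box in 32.9%. *Slc44a1* had 3 GC boxes, of which the pair nearest to the transcript start overlaps, *Pon2* had 3, *Pon3* had 1 and *Pon1* had 0. An exact copy of the hexamer AGGTCA, recognized by many nuclear receptors and found in 13.8% of the windows, was in none of the 5. Sites that differ from it by a letter would be missed by this search, so it does not tell whether a receptor site is present. The GC content was 81.2% for *Slc44a1*, 65.6% for *Pon2*, 61.6% for *Abca1*, 56.8% for *Pon3* and 47.6% for *Pon1*, against a median of 52.0%. These matches describe the letters only.

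The libraries held 3568293 to 4363229 counts for UN-SCC679 and 4242716 to 4381885 for UN-SCC680. Of the 627 window rows that could be placed by RefSeq symbol, 425 began or ended no more than 10 bases from the GRCm38 position, against 102 of 25267 rows outside the windows. At least 1 end lay that close for every member except *Pon2*, whose ends differed by 473 and 110 bases. The labeled cell type could not be checked, because 0 of 6 squamous markers (*Krt5*, *Trp63* and others) lay in the windows, and neither did any of 5 macrophage markers. Among the markers of other cells that did, the fibroblast list (2 of 7 in the windows) was carried by *Col1a2*, a chain of type I collagen, and summed to 26546 to 28858 counts per 1000000 after normalization (CPM) in the libraries of UN-SCC679 and 2184 to 2362 in those of UN-SCC680. *Col15a1* of that list had at most 6 counts in a library. The hepatocyte marker *Baat*, the only one of 4 in the windows, had at most 9 counts in a library. The 2 of 4 B cell markers summed to at most 2.60 CPM in any library. Of the 2 of 4 epithelial markers in the windows, *Esrp1* had 3 counts in all and *Klf4*, a factor of epithelial differentiation, averaged 29.6 ± 0.552 CPM in UN-SCC679 but 285 ± 9.08 CPM in UN-SCC680 (values after ± are SD, here and below, with n = 3 libraries per line). The part of these cells in the results below was not tested, and in such bulk RNA fewer cells of a type and less RNA per cell cannot be told apart.

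The comparison asked how far the lines differ in these genes. *Abca1*, *Slc44a1* and *Pon3* were higher in UN-SCC680, *Pon2* was nearly level, and *Pon1* and *Cyp7a1* were near 0 in both lines. The members were chosen by gene and position with their count differences between the lines in these same libraries already known, so their values are given as a description. Counts were scaled by the TMM method over all rows that passed a filter on low counts. Of the 6 members, 4 passed this filter, each with at least 24 counts in every library. In edgeR's quasi-likelihood fit across the 8987 rows that passed, 3 of these 4 were past an adjusted p-value of 5e-05, all 3 higher in UN-SCC680. Of all rows tested, 30.4% were past that threshold and 15.3% were past it and higher in UN-SCC680. Of the 343 window rows tested, 53.9% were past it and 38.5% were past it and higher. Libraries of the lines did not overlap for all 4 tested members, which was so for 62.2% of all rows and 77.3% of window rows. Nothing is read from these counts, since the choice of genes used the contrast.

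*Abca1* (ENSMUSG00000015243.5, chromosome 4, 53030787 to 53159895, minus strand) had 28, 35 and 24 counts in the UN-SCC679 libraries and 162, 157 and 175 in those of UN-SCC680. All UN-SCC680 libraries were above all UN-SCC679 libraries. The normalized level was 7.36 ± 0.631 CPM for UN-SCC679 and 38.5 ± 2.49 CPM for UN-SCC680. The log2 fold change was 2.38 (standard error 0.15), a level 5.19 times as high in UN-SCC680. Of the members that passed the filter it was the one with the fewest reads and the largest difference.

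*Slc44a1* (ENSMUSG00000028412.18, chromosome 4, 53440413 to 53622478, plus strand) is the next member along the chromosome. It had 1774, 2039 and 1682 counts in the UN-SCC679 libraries and 5112, 5547 and 5481 in the UN-SCC680 libraries. The groups did not overlap, with 468 ± 6.84 CPM for UN-SCC679 and 1259 ± 42.2 CPM for UN-SCC680. The log2 fold change of this choline carrier was 1.43 (standard error 0.04). A row on the other strand inside its span, *1700060J05Rik*, held 21 counts over the UN-SCC679 libraries and 33 over the UN-SCC680 libraries, so it could add little if strands were not kept apart in counting.

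**Figure D1:**
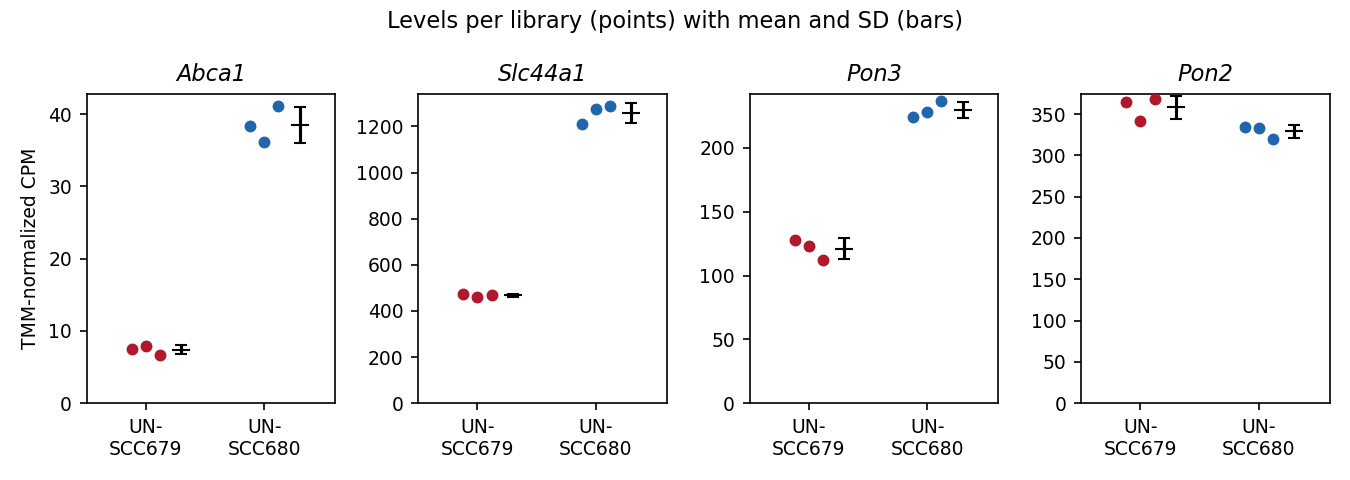
TMM-normalized CPM (linear axes from 0) of *Abca1*, *Slc44a1*, *Pon3* and *Pon2* in each library of UN-SCC679 (red) and UN-SCC680 (blue), with the mean and SD of 3 libraries as black bars. *Abca1* lies at 6.68 to 7.92 in UN-SCC679 and 36.2 to 41.1 in UN-SCC680, whereas for *Pon2* the lines lie close together, at 342 to 368 and 320 to 335.

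The 3 paraoxonase genes lie side by side on the minus strand of chromosome 6 and differed in level. *Pon3* (ENSMUSG00000029759.10, 5220852 to 5256286) had 477, 544 and 402 counts in the libraries of UN-SCC679 and 948, 990 and 1006 in those of UN-SCC680. Its level was 121 ± 8.15 CPM for UN-SCC679 and 230 ± 6.15 CPM for UN-SCC680, with no overlap between the lines. The log2 fold change was 0.92 (standard error 0.06). *Pon2* (ENSMUSG00000032667.18, 5264147 to 5298455) had 1362, 1512 and 1322 counts in the libraries of UN-SCC679 and 1414, 1445 and 1361 in those of UN-SCC680. After scaling these were 358 ± 14.1 and 329 ± 8.10 CPM. The UN-SCC680 libraries were all slightly lower, and the log2 fold change of -0.12 (standard error 0.04) was not past the threshold. *Pon1* (ENSMUSG00000002588.14, 5168090 to 5193946), the enzyme of serum, had 2, 2 and 1 counts in the UN-SCC679 libraries and 1, 0 and 0 in the UN-SCC680 libraries.

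*Cyp7a1* (ENSMUSG00000028240.3, chromosome 4, 6265612 to 6275633) was as low as *Pon1*, with 1, 1 and 2 counts in the UN-SCC679 libraries and 0, 1 and 0 in the others. Both genes were under the 3 counts that a value of 0 allows, which is 0.685 to 0.841 CPM by library size, so no fold is given and a difference was not detectable at this depth. Intervals and limits of this kind cover counting error only.

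The *Pon3* row of the table covers less than the RefSeq gene. The RefSeq model of *Pon3* runs from 5216256 to 5256285, beyond the end of the table's *Pon3* row, and this stretch is a separate row without a symbol (ENSMUSG00000107881, 5216258 to 5220486, the same strand). That row held 495, 560 and 482 counts in the UN-SCC679 libraries and 816, 831 and 841 in the UN-SCC680 libraries. It differed in the same direction as *Pon3*, with a log2 fold change of 0.57 (standard error 0.05). Summed with *Pon3*, an alternative chosen after seeing the data, it gave a log2 fold change of 0.75 (standard error 0.04) for the pair. The *Pon3* row held 0.923 ± 0.0772 counts per count of the adjoining row in UN-SCC679 cells and 1.18 ± 0.0186 in UN-SCC680 cells.

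Levels were compared between genes only after division by exon length. *Slc44a1* had the highest level in both lines, 67.4 ± 0.984 CPM per kb of exon for UN-SCC679 and 181 ± 6.07 for UN-SCC680. In UN-SCC679 it was followed by *Pon2* at 48.8 ± 1.92 and *Pon3* at 35.7 ± 2.41 CPM per kb. In UN-SCC680 the order of these paraoxonases was turned, with *Pon3* at 67.8 ± 1.82 and *Pon2* at 44.8 ± 1.10 CPM per kb. *Abca1* was lowest of the 4, at 0.711 ± 0.0609 and 3.72 ± 0.240 CPM per kb. Genes next to each other in these orders did not overlap over the libraries of a line.

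**Figure D2:**
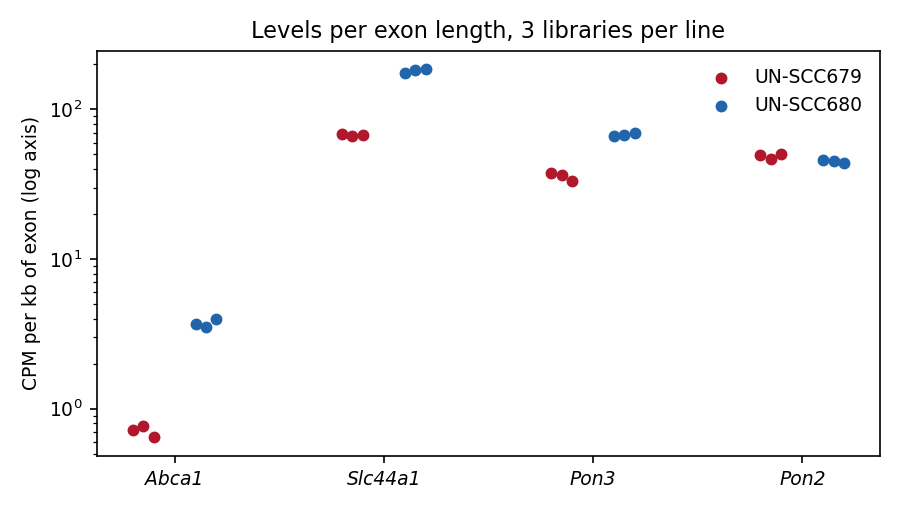
Normalized CPM per kb of exon on a log axis for the 4 members that passed the filter, with 1 point per library of UN-SCC679 (red) and UN-SCC680 (blue). *Pon2* lies above *Pon3* in UN-SCC679 (48.8 against 35.7 on average) and below it in UN-SCC680 (44.8 against 67.8).

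Ratios within a library do not depend on how libraries are scaled. The *Pon2* level per kb was 1.32, 1.28 and 1.52 times that of *Pon3* in the UN-SCC679 libraries and 0.688, 0.673 and 0.624 times in the UN-SCC680 libraries. With the adjoining row counted to *Pon3*, the mean ratios were 1.48 ± 0.0679 and 0.806 ± 0.0366, so the order turned in that reading as well. In raw counts, the *Pon3* row made up 25.2% ± 1.68 of the reads of the 3 paraoxonase rows in UN-SCC679 cells and 41.1% ± 1.25 in UN-SCC680 cells. These shares leave out the adjoining row, and would be higher with it counted to *Pon3*. The ratio of *Slc44a1* to *Abca1*, per kb, was 95.3 ± 8.85 in the UN-SCC679 libraries and 48.8 ± 3.36 in the UN-SCC680 libraries, without overlap.

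The scaling matters for the small differences. The median log2 fold change was -0.0028 over all rows tested but 0.23 over the window rows, 0.29 on chromosome 4 and -0.017 on chromosome 6. When the fit was made on the window rows alone, log2 fold changes moved by a median of -0.24. *Abca1* was then at 2.14, *Slc44a1* at 1.19, *Pon3* at 0.69 and *Pon2* at -0.36, and *Pon2* was past the threshold. The share of called window rows that were higher in UN-SCC680 was 71.4% with all rows tested and 45.6% with the windows alone.

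Other genes of lipid biology in the windows were taken from a list of 20, of which 10 passed the filter and 8 were past the threshold in edgeR's fit, 3 higher and 5 lower in UN-SCC680. Of all rows tested 30.4% were past it, 15.3% higher and 15.2% lower. Of the window rows 53.9% were past it, 38.5% higher and 15.5% lower. The median log2 fold change of the 10 was -0.31, beside the 0.23 of the window rows. Of the 5 lower genes, *Decr1* and *Ttpa* passed the filter only through their UN-SCC679 counts. They could be tested only as lower in UN-SCC680, and both enter the median. The split by direction and the median are therefore a description only. With scaling within the windows 8 were called as well, 2 of them higher, with *Gba2* in place of *Pip4p2*. The list held genes whose values in these data were known when it was made.

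Genes of membrane phospholipids went both ways. *Pigo*, which adds ethanolamine phosphate to glycosylphosphatidylinositol anchors, rose from 105 ± 4.45 to 212 ± 6.44 CPM, or by 1.02 on the log2 scale (edgeR adjusted p = 3.93e-20). *Pip4p2*, a phosphoinositide phosphatase, rose by 0.25 on the log2 scale (edgeR adjusted p = 4.93e-07), and lay at 0.012, not past the threshold, with scaling within the windows. It was also not past it without UN-SCC679 replicate 2. *Lpar1*, a receptor for lysophosphatidic acid, had 2293, 2619 and 2262 counts in the UN-SCC679 libraries and 175, 150 and 170 in the UN-SCC680 libraries. This was the largest difference on the list in a gene read in both lines, with a log2 fold change of -3.98 (standard error 0.06, edgeR adjusted p = 1.40e-42).

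In the sphingolipid group, *Nsmaf*, an adaptor of neutral sphingomyelinase, rose by 0.55 on the log2 scale, from 294 ± 6.15 to 432 ± 12.1 CPM (edgeR adjusted p = 1.21e-15). *Gba2*, the non-lysosomal glucosylceramidase, was at 107 ± 3.91 and 87.9 ± 3.89 CPM, a log2 fold change of -0.28 that did not pass the threshold (edgeR adjusted p = 0.000348) except with scaling within the windows, where it was -0.52. The caveolins coat cholesterol-rich pits of the plasma membrane. *Cav1* fell from 6954 ± 142 to 5426 ± 159 CPM and *Cav2* from 1232 ± 29.4 to 974 ± 47.0, log2 fold changes of -0.36 and -0.34 (edgeR adjusted p = 7.05e-16 and 8.31e-12).

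*Decr1*, an enzyme of the mitochondrial oxidation of unsaturated fatty acids, had 433, 518 and 412 counts in the UN-SCC679 libraries and none in UN-SCC680. Taken against 3 counts per library, this is at least 168-fold lower. *Ttpa*, the transfer protein of vitamin E, had 28, 25 and 25 counts in the UN-SCC679 libraries and 5, 6 and 7 in the UN-SCC680 libraries, a log2 fold change of -2.22 (edgeR adjusted p = 1.38e-07). *Hilpda*, which inhibits lipolysis at lipid droplets, was at 98.8 ± 2.64 and 121 ± 3.25 CPM, a log2 fold change of 0.29 that did not pass the threshold (edgeR adjusted p = 0.000118) except with no filter on low counts. The other 10 genes, among them the bile acid conjugating enzyme *Baat*, the glycerol channels *Aqp3* and *Aqp7*, leptin (*Lep*) and the cannabinoid receptor *Cnr1*, had at most 30 counts over all libraries, and 5 of them had 0.

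**Figure D3:**
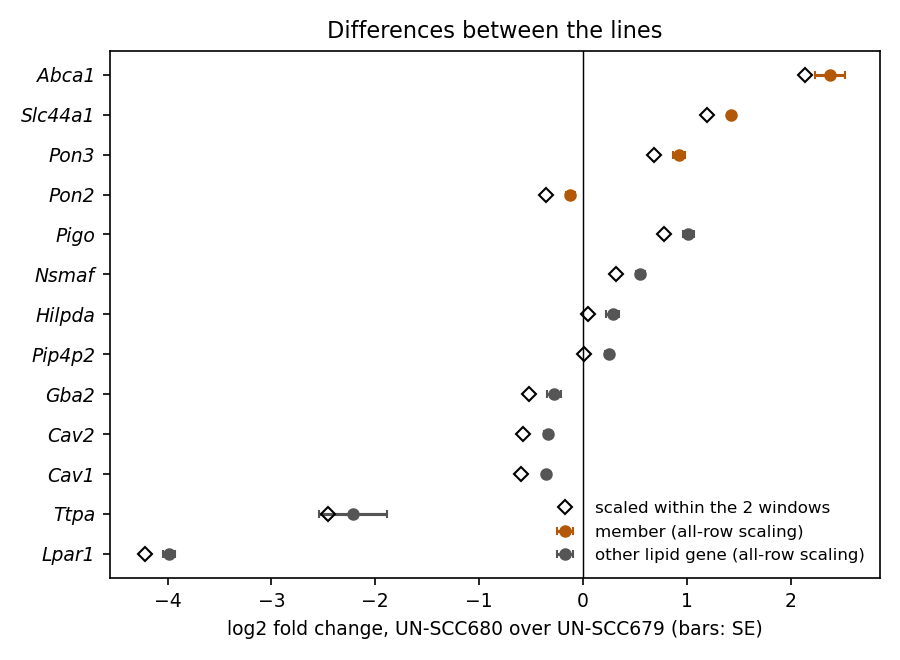
Log2 fold change of UN-SCC680 over UN-SCC679 with standard errors (bars) for the 4 members (orange) and 9 other lipid genes (gray) scaled over all rows tested, and the same values scaled within the 2 windows (open diamonds). *Decr1*, at 0 counts in UN-SCC680, is left out. Values run from 2.38 for *Abca1* to -3.98 for *Lpar1*, and those of *Hilpda* and *Pip4p2* move close to 0 under the other scaling.

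Genes that work directly with ABCA1 could not be set beside it. Of 36 genes of cholesterol and choline handling, among them *Nr1h3*, *Abcg1*, *Apoe* and *Srebf2*, 35 were matched to a row and 0 lay in the windows. All 35 had both ends more than 1000 bases from their GRCm38 positions, so their counts were not read as levels.

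The genes around the members were described by position. *Nipsnap3b*, 8.73 kb from the end of *Abca1*, was higher in UN-SCC680 by 0.82 on the log2 scale (113 ± 2.67 and 199 ± 5.92 CPM, edgeR adjusted p = 4.61e-17). On the far side of *Slc44a1*, *Fsd1l*, 8.99 kb away, was at 70.1 ± 4.06 and 86.3 ± 9.33 CPM and did not pass the threshold (log2 fold change 0.30, edgeR adjusted p = 0.000918). Farther out, the pseudogene *Cct3-ps1*, whose reads may be shared with its parent gene, was lower in UN-SCC680 with a log2 fold change of -0.94, and *Gm12470* had 0.13, or -0.10 with scaling within the windows. The values of 2.38 for *Abca1* and 1.43 for *Slc44a1* were above those of the nearest genes on either side, a difference between genes that was not tested.

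The nearest 2 tested genes on each side of the paraoxonases were all lower in UN-SCC680. All of them passed the filter on low counts only through UN-SCC679, so they could be tested only as lower. Genes low in both lines were passed over, so nothing is read from this shared direction. *Ppp1r9a*, which ends 2.43 kb from *Pon1*, had 31, 46 and 18 counts in the UN-SCC679 libraries and 5, 5 and 4 in the UN-SCC680 libraries, a log2 fold change of -2.85 (edgeR adjusted p = 2.40e-09). *Asb4*, 84.9 kb beyond *Pon2*, had 175, 208 and 163 counts in the UN-SCC679 libraries and 10, 5 and 12 in the UN-SCC680 libraries, a log2 fold change of -4.44 (edgeR adjusted p = 1.21e-24). *Pdk4*, the next gene tested, had 2 counts in all of UN-SCC680 and at least 1605 in each UN-SCC679 library, and *Peg10*, 408 kb before *Pon1*, had 0 in UN-SCC680 and 71 to 113 in UN-SCC679. *Pon3* and *Pon2*, with at least 948 counts in every UN-SCC680 library, lay between these tested genes, which were low or near 0 in that line. Around *Cyp7a1*, the nearest genes tested were read in both lines, with *Ubxn2b* and *Sdcbp* higher in UN-SCC680 by 0.65 and 0.54 on the log2 scale, and *Fam110b* lower, with a log2 fold change of -0.64.

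**Figure D4:**
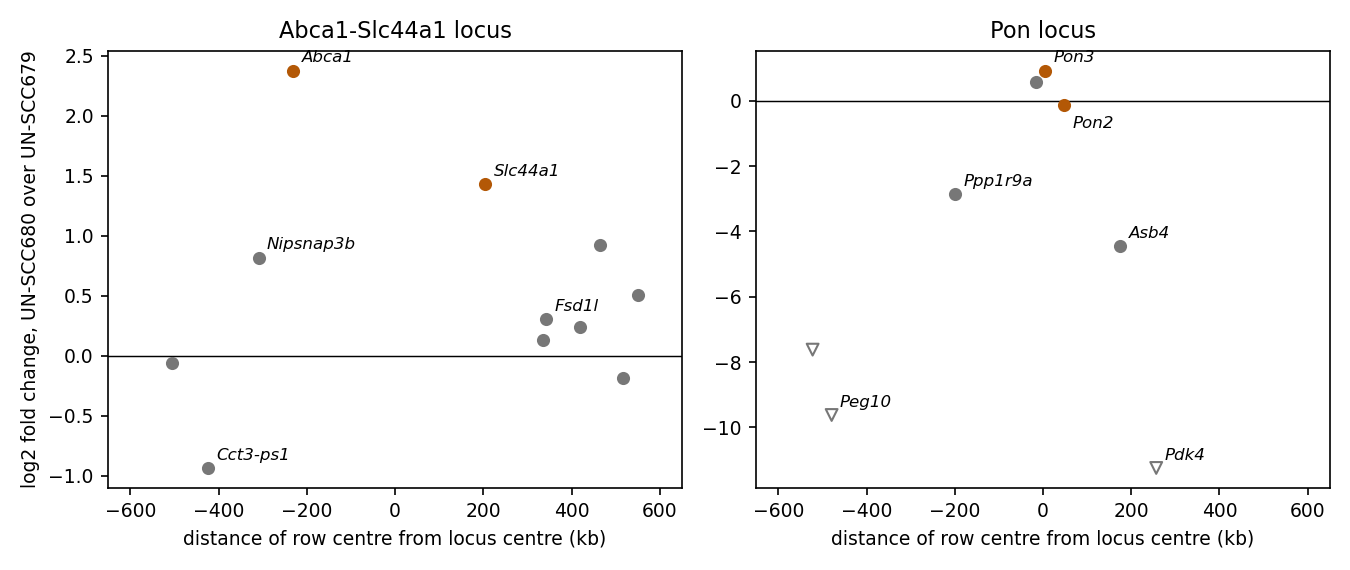
Log2 fold change of UN-SCC680 over UN-SCC679 against the distance in kb of each tested row from the centre of the *Abca1*-*Slc44a1* locus (left) and of the paraoxonase locus (right), on axes of different range. Members are orange, other rows gray, and open triangles are rows at 3 counts or fewer in every UN-SCC680 library, whose fitted value is no measured fold. *Pon3* (0.92) and *Pon2* (-0.12) lie between *Ppp1r9a* (-2.85) and *Asb4* (-4.44).

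The window rows whose profile over the 6 libraries was nearest to that of *Abca1* were *Ptpn3*, *Trp53inp1* and *Reck*, all on chromosome 4. Likeness was the Euclidean distance between centered log2 CPM values, which was 0.241, 0.309 and 0.381 for these genes and 1.11 for *Slc44a1*. *Ptpn3*, a protein tyrosine phosphatase, had 262, 297 and 252 counts in the UN-SCC679 libraries and 1453, 1498 and 1476 in the UN-SCC680 libraries, a log2 fold change of 2.32. *Trp53inp1* and *Reck* had 2.55 and 2.34. With 2 lines, such a profile holds little more than the difference between the lines, and it says nothing of a shared control.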

How the data were processed

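PolyA RNA of UN-SCC679 and UN-SCC680 was sequenced in 3 libraries per line from stranded paired-end libraries. The table the authors deposited gives raw counts of reads for each Ensembl gene, not normalized, beside the gene's exons and their summed length. The submitters' notes name featureCounts and mm10, whereas the paper's methods name Trimmomatic, Kallisto with mm10, and DESeq2. Counting by strand is not given in the sources used here. Most gene positions in the table are not those of GRCm38 (mm10), so single genes were read only inside the 2 windows. Columns were matched to libraries by line and replicate number, and 0 columns were unused. Symbols came from GENCODE M1 identifiers (31021 of 55359 matched) and RefSeq of GRCm38.p6, which also gave the promoter sequences.

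Counts were tested with edgeR 4.0.16 (quasi-likelihood, TMM over all rows that passed filterByExpr, no covariates, R 4.3.3) with Benjamini-Hochberg adjustment at 5e-05, the threshold in the study's text. Standard errors were derived from the F statistic, and log2 CPM used a prior count of 2. The members and lists were chosen with earlier results of these data known. The genes named were the members, the list genes that passed the filter, the nearest 2 tested genes on each side and the 3 profiles nearest to *Abca1*. *Col1a2*, *Col15a1*, *Esrp1* and *Klf4* come from marker lists. *Baat*, *Aqp3*, *Aqp7*, *Lep* and *Cnr1*, list genes under the filter, and the overlapping or adjoining rows *1700060J05Rik* and ENSMUSG00000107881 were named after their values were seen. A few list genes are not reported here. Within a line, every pair of libraries differed beyond sampling noise (chi-square per degree of freedom of 1.12 or more), and p-values measure only the spread between these libraries. Alternatives were DESeq2 1.42.0, limma-voom (limma 3.58.1), other scalings, filters and thresholds, the replicate block and leaving out each library. Normal basal cells and whole lung were not analysed here. Other tools were Python 3.11.15, pandas 2.3.3, NumPy 2.4.6 and matplotlib 3.10.9.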

Additional observations from a re-analysis of the deposited data

How the results depend on the processing

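The 4 tested members were followed through the alternatives, and in 70 of 73 cases the direction and the call stayed as given, with 0 reversed. The alternatives that changed only the threshold used the main fit, so in these the direction could not reverse, and the looser one could not remove a call. The exceptions were *Pon2*, which passed at an adjusted p-value under 0.05 (-0.12) and with the windows alone (-0.36), where scaling rests on other rows, and *Pon3* (0.92), which was not called when a log2 fold change over 1 was also required, a threshold applied to the members after seeing the data. *Abca1* ran from 2.14 to 2.44, *Slc44a1* from 1.19 to 1.46, *Pon3* from 0.69 to 0.96 and *Pon2* from -0.36 to -0.088. With each library left out in turn, *Abca1* ran from 2.31 to 2.44, *Slc44a1* from 1.42 to 1.46, *Pon3* from 0.87 to 0.96 and *Pon2* from -0.16 to -0.091. The 8 list genes past the threshold became 4 when a log2 fold change over 1 was also required and 10 at 0.05, were 9 with no filter on low counts, where *Hilpda* was gained, and were 7 without UN-SCC679 replicate 2, where *Pip4p2* was lost. The 2736 rows past it became 5248 at 0.05, 1024 with a log2 fold change over 1 and 158 of 341 with the windows alone, and were 2225 to 2611 with a library left out. DESeq2 called 2059 and limma-voom 2504.

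With the replicate number as a block, 2528 rows were past the threshold and no call of a member changed. Deviations of libraries with the same number correlated at -0.036, 0.0032 and -0.027, so the numbers were not taken as pairs. At this depth *Pon1* and *Cyp7a1* could not be compared, and *Abca1*, with 24 to 35 counts per UN-SCC679 library, had the widest standard error of the members.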
